A study of Mus musculus with 30 samples.

Results

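Wild-type dendritic cells collected 3 h after the addition of viable conidia (spores) of Aspergillus fumigatus, a mould, were compared with wild-type cells collected before challenge (0 h), across all genes. Each time had 3 libraries, so the comparison rests on 6 of the 30 libraries of the series, and all 6 were chosen by the genotype and time in their labels. The other 24 libraries come from wild-type (WT) cells at 6, 9 and 12 h and from Nlrx1 deficient (KO) cells at all 5 times. Cells had been flushed from the femur and tibia of mice, grown with the growth factor GM-CSF for 6 days, plated, and given as many conidia of the isolate AF29 as there were cells. Strain, sex and age of the mice are not in the labels. No library stands for cells kept for 3 h without conidia, so the conidia and the time in the plate cannot be told apart in this comparison. The labels do not give separate animals or cultures for the 3 libraries of a group, and the p-values then cover only the spread among these libraries, which may be technical.

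Dendritic cells take up inhaled spores, read their wall sugars through C-type lectin receptors such as Dectin-1, and carry fungal antigen to lymph nodes. Resting conidia are covered by a layer that hides much of the wall sugar until the spores swell. Maturing dendritic cells replace their adhesion and chemokine receptors, CCR7 foremost, and raise costimulatory molecules and the actin bundler fascin. Cultures of marrow with GM-CSF give a mixture of cells that resemble dendritic cells and cells that resemble macrophages.

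Total counts per library ran from 2498937 to 2912464 at 0 h and from 2020967 to 2567135 at 3 h in WT cells. Nlrx1, the gene targeted in the KO animals, had counts of 38, 19 and 24 at 0 h and 22, 16 and 13 at 3 h in WT cells, against 2, 7 and 5 and then 12, 4 and 3 in the KO cells. The cells carried the dendritic cell marker Itgax (CD11c) at 2466 to 3523 counts per library, while Flt3 was at 0 in all 6 libraries and Cd209a at 0 to 3 counts. Scaled to library size, tested dendritic cell markers summed to 3429, 3597 and 3595 counts per common library total (CPM) at 0 h and 3513, 3803 and 3124 CPM at 3 h. Those of macrophages, which the labels do not mention, summed to 12960, 12740 and 12510 CPM and 12620, 12620 and 12410 CPM. Most of that sum was 1 gene, Lyz2, with means of 9017 CPM at 0 h and 8833 CPM at 3 h. The sums of the lists therefore do not give shares of cell types. Both lists overlapped between the times, while neutrophil markers summed to 1624, 1654 and 1587 CPM at 0 h and 1742, 1725 and 1736 CPM at 3 h, without overlap. T and NK cell markers had 0 to 5 raw counts per library in all. In such bulk samples fewer cells of a type and less RNA per cell cannot be told apart. The share of counts in small structural RNA genes was 5.48% to 6.04% at 0 h and 6.46% to 6.8% at 3 h, without overlap, and its part in the results below was not tested.

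At 3 h few genes differed, and most of those were higher. Of 12393 genes tested 126 (1.02%) passed an adjusted p of 0.05, with 109 higher (0.88%) and 17 lower (0.137%) than at 0 h. Among the rises, 22 were at least 2-fold and 49 were under 1.5-fold, with a median log2 change of 0.636. Among the falls, 4 were at least 2-fold and 12 were under 1.5-fold, with a median of -0.387. In all 126 genes the 3 libraries at 3 h lay outside the range of the 3 at 0 h, which also held, with no test, for 8.26% of all tested genes on the high side and 7.01% on the low side. Over all genes the median log2 change was -8.57e-05, and 1175 genes had an unadjusted p under 0.05.

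Levels are given below as CPM, counts scaled to a common library total, for replicates 1, 2 and 3 in turn. Log2 changes carry the standard error of the fit, and adjusted p-values are those of the quasi-likelihood test in edgeR after Benjamini-Hochberg adjustment over all tested genes. Of the 126 calls, 58 were made again with each of the 6 WT libraries left out in turn. A gene called in WT cells and named below belongs to those 58 unless a paragraph on it says otherwise. Counts of called members in a list stand beside 0.88% higher and 0.137% lower among all tested genes. All lists were chosen with earlier results of these data known, so these counts are descriptions and not tests. Some lists share members, so they are not separate results. The number of calls itself fell by more than a factor of 1.5 without WT 0 h replicate 1 (82 calls), WT 0 h replicate 3 (80) and WT 3 h replicate 3 (83).

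**Figure D1:**
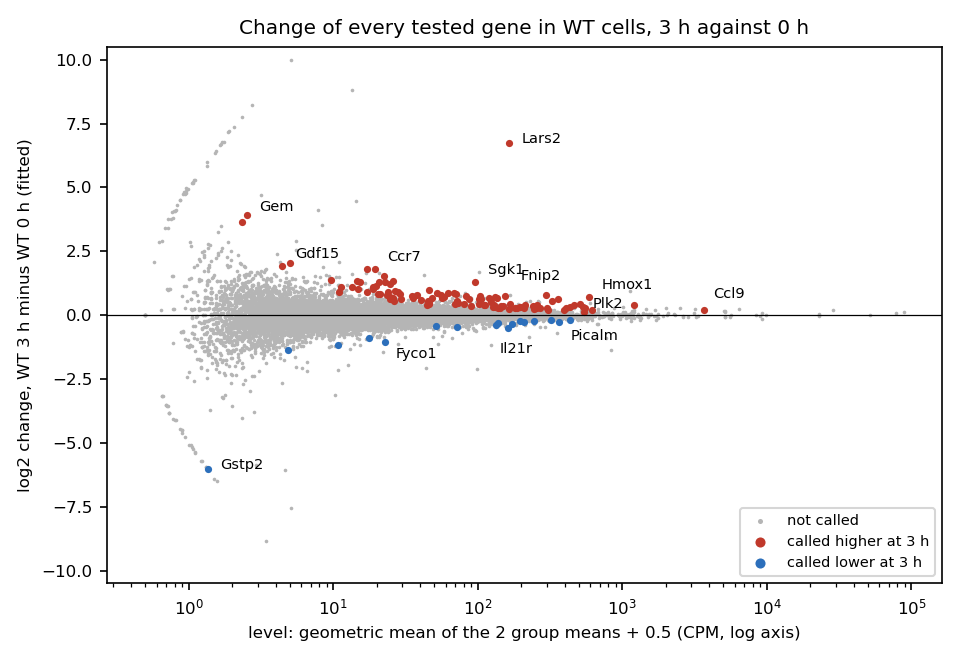
Fitted log2 change of each tested gene in WT cells (3 h minus 0 h, vertical axis) against its level (CPM, log axis), with grey points for genes that were not called, red for the 109 called higher and blue for the 17 called lower. Most called genes lie within 2 log2 units of 0, and the arcs of grey points at the left are genes with counts in only 1 of the groups.

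Genes of dendritic cell maturation and migration were among the rises. Of 34 tested members 7 rose and none fell, against 0.88% and 0.137% of all tested genes, with a median log2 change over the list of 0.349. The 7 were Ccr7, Ccl22, Cacnb3, Fscn1, Cd83, Cd274 and Marcksl1. The calls of Cd274 and Marcksl1 depended on single libraries, as given below. Another 27 members did not pass the test. Ccr7, the receptor that guides dendritic cells to lymph nodes (chromosome 11, 99144196 to 99155077 in GRCm38), was at 12.4, 10.9 and 6.64 CPM at 0 h and at 22.6, 34.6 and 48.4 CPM at 3 h. Its libraries at 3 h were spread widely, yet the lowest stood well above the highest at 0 h. The log2 change was 1.79 ± 0.24 (adjusted p = 6.19e-05).

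Fscn1 encodes fascin, which bundles actin in the long processes of mature dendritic cells. It was at 14.5, 14.7 and 18.7 CPM before challenge and at 40.4, 35.1 and 45.5 CPM after 3 h, a log2 change of 1.34 ± 0.24 (adjusted p = 0.00209). Cd83, a surface protein that marks mature dendritic cells, went from 6, 5.45 and 5.39 CPM to 15.4, 14.6 and 13.8 CPM (log2 change 1.37 ± 0.25, adjusted p = 0.00216). In both genes no library at 3 h came near the range at 0 h. Cacnb3, a calcium channel subunit that is high in migratory dendritic cells, was at 14.1, 10.9 and 13.3 CPM and then at 30.7, 35.7 and 47 CPM (1.55 ± 0.25, adjusted p = 0.000593).

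Other receptors and costimulatory genes gave a mixed picture. Cxcr4, a chemokine receptor of cells homing towards CXCL12, rose from 7.42, 11.3 and 9.96 CPM to 19.4, 21.1 and 29.2 CPM, with a log2 change of 1.28 ± 0.24 (adjusted p = 0.00336). Ccrl2, a receptor that binds chemerin without signalling, was at 14.1, 15.5 and 12.9 CPM and then at 35.6, 34 and 36.6 CPM, a change of 1.32 ± 0.15 (adjusted p = 2.35e-06). The Ccrl2 libraries of each group lay within a few CPM of each other. Cd274, the inhibitory ligand PD-L1, rose by less, from 357, 367 and 386 CPM to 435, 468 and 451 CPM (0.29, adjusted p = 0.00618). Cd86, a costimulatory ligand for T cells, was at 3.88, 8.39 and 8.3 CPM at 0 h and at 16.2, 11.3 and 18.3 CPM at 3 h, without overlap, and did not pass the test (1.18 ± 0.34, adjusted p = 0.105). H2-Aa, a chain of MHC class II, was at 216, 231 and 232 CPM and at 232, 270 and 220 CPM, and none of 23 tested genes of MHC presentation was called. In a fit of the 6 libraries alone the adjusted p was 0.0592 for Ccr7 and 0.0578 for Cxcr4. Leaving out single libraries kept 5 of the 7 calls in the maturation list, and lost those of Cd274 without WT 0 h replicate 1 (adjusted p = 0.052; 0.17 with no filter on low counts) and of Marcksl1 without WT 0 h replicate 1, 2 or 3 or WT 3 h replicate 1 or 3 (up to 0.228).

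The promoter of Fscn1 is shown because a full cyclic AMP response element (CRE), the palindrome TGACGTCA, stands close to its start, as it does in Plk2, an immediate early kinase described below. The letters are those of the strand of the gene in RefSeq on GRCm38.p6, with the CRE in capitals. They end before the RefSeq start or before the gene in the GENCODE annotation, whichever comes first. The stretch of Fscn1 runs over chr5:142960105-142960342 and that of Plk2 over chr13:110394794-110395043, both on the plus strand.
Fscn1: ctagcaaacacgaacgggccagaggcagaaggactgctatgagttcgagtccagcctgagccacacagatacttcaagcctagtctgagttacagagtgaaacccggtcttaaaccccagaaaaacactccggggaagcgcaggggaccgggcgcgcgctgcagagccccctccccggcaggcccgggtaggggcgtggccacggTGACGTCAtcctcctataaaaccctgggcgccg
Plk2: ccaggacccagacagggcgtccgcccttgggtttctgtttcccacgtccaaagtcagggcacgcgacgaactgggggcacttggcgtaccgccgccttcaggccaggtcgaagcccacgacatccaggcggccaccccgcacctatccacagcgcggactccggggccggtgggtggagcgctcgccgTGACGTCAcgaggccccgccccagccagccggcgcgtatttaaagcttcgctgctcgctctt
The element begins 45 bases before the RefSeq start in Fscn1 and 62 bases before it in Plk2. The Fscn1 letters, 238 bases against 250 for Plk2, stop short of that RefSeq start, where the GENCODE gene begins. Promoters of 300 bases were found for 91 of the 109 rises, and 4 of them (4.4%) held TGACGTCA, in Dusp1, Flcn, Fscn1 and Plk2. The share was 3.76% among the 8529 tested genes with a promoter and 1.79% among all 32851 promoters of that length, and 0 of 14 falls held it. Flcn is not among the 58 genes, since its call was lost without WT 0 h replicate 1 or 3 or WT 3 h replicate 1 or 3 (adjusted p up to 0.0908). The AP-1 letters TGANTCA stood in 7 rises (7.69%) against 6.26% of tested genes, and the antioxidant response letters TGACNNNGC in 20 (22%) against 17.1%. Other elements were searched as well. The interferon-stimulated response element stood in 3 rises (3.3%) against 4.03% of tested genes, and the Plk2 stretch holds 1 match. An element named CLEAR, added to the search, stood in 2 rises (2.2%) against 2.36%. The heat shock element stood in 1 rise, Dnmt1 (1.1%), against 0.539%. Both strands were searched, and a match describes letters only.

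Early response genes rose in part. The 32 tested immediate early transcription factors, genes that cells switch on without new protein synthesis, had a median log2 change of 0.199. Of them 7 rose and 1 fell, against 0.88% and 0.137% of all tested genes. Single libraries left out kept 3 of those 7 calls, Jun, Atf3 and Nr4a3. Jun, a subunit of AP-1 (chromosome 4, 95049034 to 95052222), was at 121, 116 and 115 CPM at 0 h and at 201, 205 and 195 CPM at 3 h, a log2 change of 0.77 ± 0.08 (adjusted p = 9.57e-07). Atf3, a stress-induced repressor of cytokine genes, was at 259, 266 and 276 CPM and then at 389, 375 and 421 CPM (0.57 ± 0.07, adjusted p = 7.09e-06). In both genes the groups were far apart relative to their spread. Nr4a3, an orphan nuclear receptor induced by cyclic AMP, rose from 12, 16.8 and 19.1 CPM to 30.7, 30.8 and 48.4 CPM (1.21 ± 0.19, adjusted p = 0.000317; 0.0689 with the 6 libraries alone).

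Fos and Egr1, which belong to the same class, did not pass the test. Fos, the partner of JUN in AP-1, was at 39.2, 46.1 and 41.5 CPM before challenge and at 55.4, 43.2 and 47.5 CPM after it (0.21 ± 0.12, adjusted p = 0.608). Egr1, a zinc finger factor downstream of MAP kinases, was at 47, 42 and 46 CPM and at 40, 49.7 and 49.4 CPM (0.04, adjusted p = 0.989). In both genes the groups overlapped. Fosl2, another AP-1 subunit, fell, from 183, 191 and 204 CPM to 144, 151 and 158 CPM (-0.35 ± 0.07, adjusted p = 0.00618). That call was lost without WT 0 h replicate 3 (adjusted p = 0.0652), without WT 3 h replicate 1 (0.0564) with the 6 libraries alone (0.0512) and with no filter on low counts (0.105).

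The 14 tested genes that respond to cyclic AMP and CREB had a median log2 change of 0.567 against about 0 for all genes. Of them 4 rose and none fell, against 0.88% and 0.137% of all tested genes. Those were Plk2, Dusp1, Nr4a3 and Gem, and all 4 calls held without any single library. Plk2 was at 433, 444 and 440 CPM and then at 600, 594 and 602 CPM, with a log2 change of 0.45 ± 0.04 (adjusted p = 5.22e-07). The libraries of a group lay within a few CPM of each other, and the change was 1.36-fold. Dusp1, a phosphatase that switches off MAP kinases, rose from 42.7, 38.2 and 44.8 CPM to 70.7, 68.7 and 80.6 CPM (0.81 ± 0.12, adjusted p = 0.000197), the only call among 21 tested MAP kinase phosphatases and feedback inhibitors. Gem, a small GTPase that acts on calcium channels and the cytoskeleton, was almost silent before challenge, with counts of 0, 3 and 0, and had 18, 7 and 17 counts at 3 h. Pooled over libraries the ratio was 16.8 with an exact interval (95%, counting error only) of 5.38 to 84.8, and the fitted change was 3.90 ± 0.53 (adjusted p = 6.19e-05). The fitted value moved to 7.08 without WT 0 h replicate 2, which held the 3 counts, and to 3.3 without WT 0 h replicate 1.

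**Figure D2:**
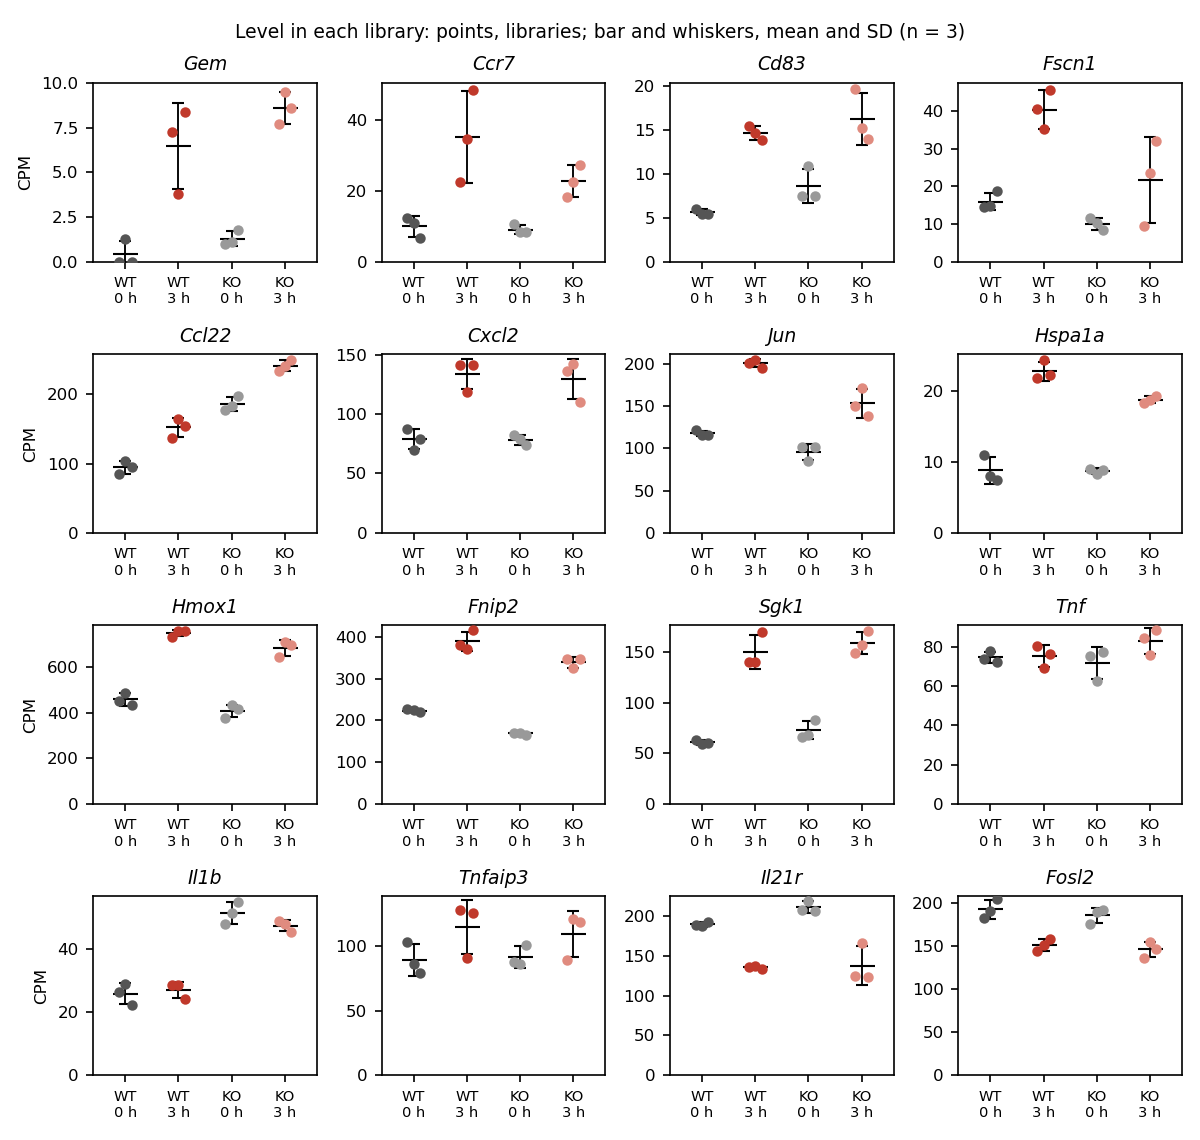
Level (CPM, linear axes from 0) of 16 genes in each WT and KO library at 0 and 3 h, with points for libraries, a bar for the mean and whiskers for the SD (n = 3). In WT cells the groups are apart for Ccr7, Cd83, Fscn1, Ccl22, Cxcl2, Jun, Hspa1a, Hmox1, Fnip2, Sgk1, Il21r and Fosl2 and overlap for Tnf, Il1b and Tnfaip3.

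The gene with the smallest p in the comparison was Sgk1, a kinase induced by serum, glucocorticoids and osmotic stress (chromosome 10, 21882184 to 21999903). It was at 62.9, 58.7 and 60.6 CPM at 0 h and at 140, 140 and 170 CPM at 3 h, a 2.47-fold rise with a log2 change of 1.30 ± 0.10 (adjusted p = 5.8e-09). Rhob, a GTPase of the endosome and the actin skeleton, rose from 133, 137 and 126 CPM to 167, 169 and 173 CPM (0.36, adjusted p = 0.00257; 0.11 with no filter on low counts). With Gem and Plk2, already counted in the cyclic AMP list, these were the 4 rises among 19 tested early GTPase, kinase and matricellular genes. The share among all tested genes was 0.88%. Of 10 tested glucocorticoid-responsive genes, 2 rose, Sgk1 and Dusp1, both also counted in other lists, against the same 0.88%. The median of that list was -0.0368. Tent5c, a poly(A) polymerase, was at 9.89, 8.81 and 7.47 CPM and then at 29.5, 23.8 and 40 CPM (1.82 ± 0.19, adjusted p = 7.63e-07). Fbxo32, the muscle ubiquitin ligase atrogin-1, went from 11.7, 15.5 and 11.2 CPM to 31.5, 28.1 and 35.1 CPM (1.31 ± 0.16, adjusted p = 1.26e-05). In these genes the lowest library at 3 h was well above the highest at 0 h.

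Some secreted factors rose. Of 31 tested inflammatory cytokines and chemokines 5 rose and none fell, against 0.88% and 0.137% of all tested genes. The median log2 change of the list was 0.182. The 5 were Inhba, Ccl22, Cxcl2, Ccl5 and Ccl9, and 3 of these calls, those of Inhba, Ccl22 and Cxcl2, held without any single library. Ccl22, a chemokine for regulatory T cells made by maturing dendritic cells, was at 85.1, 104 and 94.6 CPM and then at 137, 164 and 155 CPM (0.69 ± 0.10, adjusted p = 0.000106). Cxcl2, which attracts neutrophils, rose from 87.6, 70.1 and 79.2 CPM to 141, 119 and 141 CPM (0.76 ± 0.11, adjusted p = 0.000204). Inhba, the subunit of activin A, rose from 297, 281 and 291 CPM to 451, 414 and 466 CPM (0.61 ± 0.09, adjusted p = 9.12e-05). For each of these 3 genes the gap between the groups exceeded the range within either group. Ccl5 was at 14.8, 20.1 and 21.6 CPM and at 34.4, 40.5 and 35.1 CPM (0.96 ± 0.20, adjusted p = 0.0105), a call lost without WT 0 h replicate 1 (0.107) or WT 3 h replicate 2 (0.0615). Ccl9 had a change of 0.19 (adjusted p = 0.0455) that was lost without WT 0 h replicate 3 or WT 3 h replicate 1, 2 or 3 (up to 0.326), and the change was 0.107 without WT 0 h replicate 3.

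The classical early cytokines of a microbial response did not pass the test. Tnf was at 73.8, 77.6 and 72.2 CPM at 0 h and at 80.4, 69.2 and 76.1 CPM at 3 h (0.02 ± 0.11, adjusted p = 0.992). Il1b, the precursor of interleukin-1 beta, was at 26.5, 28.9 and 22.4 CPM and at 28.7, 28.6 and 24.2 CPM (0.07 ± 0.12, adjusted p = 0.963). In both genes the libraries at 3 h lay in or near the range of those at 0 h. Il1a was at 106, 92.7 and 90.9 CPM and at 90.5, 89.2 and 76.6 CPM (-0.18 ± 0.12, adjusted p = 0.73). Il6 had 2, 2 and 2 counts before challenge and 0, 0 and 0 after it, too few to compare at this depth. Cxcl1, a chemokine related to Cxcl2, was at 1.77, 2.1 and 4.15 CPM and at 3.23, 4.87 and 1.98 CPM (0.33 ± 0.42, adjusted p = 0.912).

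Subunit and feedback genes of NF-kappaB, a factor that drives those cytokines, held a single call. Of 31 tested members only Gadd45b rose, and the list had a median log2 change of 0.0859. Nfkbia, the inhibitor that NF-kappaB itself induces, was at 110, 116 and 113 CPM and at 116, 120 and 125 CPM (0.09 ± 0.08, adjusted p = 0.837). Tnfaip3, the ubiquitin-editing enzyme A20, was at 103, 86 and 79.2 CPM and at 128, 90.8 and 126 CPM, with overlap between the groups (0.36 ± 0.17, adjusted p = 0.496). Gadd45b, a stress-response regulator of MAP kinase signalling, was at 15.9, 12.2 and 9.96 CPM and at 17, 35.7 and 26.7 CPM (1.02 ± 0.21, adjusted p = 0.00848). Its call was lost without WT 0 h replicate 3 (0.0857), without WT 3 h replicate 2 (0.112) and with the 6 libraries alone (0.24).

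Most listed receptors and killing systems for the fungus had enough counts to be tested. The tested members were not called at 3 h, with 2 exceptions in the phagosome list. Cd209a, Cd209b, Nos2, Mpo and Il18 did not pass the filter on low counts. None of 31 tested genes of fungal recognition and the Card9 pathway, and none of 23 NOD-like receptor and inflammasome genes, passed the test (lists' medians 0.0372 and -0.00547). Clec7a, which encodes Dectin-1, changed by 0.08 ± 0.05 on the log2 scale (adjusted p = 0.638). Nlrp3, the inflammasome sensor, was at 44.1, 73.4 and 50.6 CPM and at 68.3, 48.1 and 69.2 CPM (0.16 ± 0.27, adjusted p = 0.943). Ptx3, a soluble receptor that coats conidia, was at 234, 230 and 208 CPM and at 197, 185 and 196 CPM, with no overlap and a change of -0.22 ± 0.09 that did not pass (adjusted p = 0.378). Of 24 tested genes of the NADPH oxidase and phagosome 2 rose, Acod1 and Atp6v0d2. Acod1, which makes itaconate, went from 62.5, 58.7 and 69.7 CPM to 110, 103 and 107 CPM (0.74 ± 0.11, adjusted p = 0.000109). Atp6v0d2, a subunit of the proton pump of lysosomes, was at 568, 576 and 574 CPM and then at 658, 657 and 669 CPM (0.21 ± 0.04, adjusted p = 0.00336; 0.0596 with the 6 libraries alone and 0.391 with no filter on low counts).

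The lists of stress genes held a few rises each, while 0.88% of all tested genes were called higher. Hmox1, heme oxygenase, which breaks down heme (chromosome 8, 75093621 to 75100589), was at 450, 487 and 435 CPM at 0 h and at 731, 757 and 756 CPM at 3 h (0.71 ± 0.06, adjusted p = 4.71e-08). Of 35 tested targets of NRF2 and oxidative stress it was 1 of 3 that rose, with Slc7a11 and Sqstm1, and the median of that list was 0.00439. Slc7a11, the cystine importer, rose from 516, 498 and 496 CPM to 629, 602 and 579 CPM (0.26 ± 0.03, adjusted p = 4.88e-05). The call of Sqstm1, an autophagy receptor, was lost without WT 0 h replicate 1 or 2 or WT 3 h replicate 1 or 2 (up to 0.131). Hspa1a and Hspa1b, which encode nearly identical inducible HSP70 chaperones, were the 2 rises among 23 tested cytosolic chaperones. Hspa1a was at 10.9, 7.97 and 7.47 CPM and then at 21.8, 24.3 and 22.2 CPM (1.35 ± 0.16, adjusted p = 7.35e-06). Hspa1b was at 9.53, 8.39 and 8.3 CPM and then at 19, 20 and 17.8 CPM (1.10 ± 0.17, adjusted p = 0.000215). How reads of these near copies were split between them is uncertain, and both rose by a similar amount. Hspa8, the constitutive member, was at 704, 899 and 684 CPM and at 626, 612 and 567 CPM, a change of -0.34 ± 0.09 that missed the threshold (adjusted p = 0.0764). It passed without WT 0 h replicate 3 (-0.415, adjusted p = 0.0412) and shrank to -0.208 without WT 0 h replicate 2 (0.428).

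Among genes of the unfolded protein response and the integrated stress response, 4 of 34 tested members rose, against 0.88% of all tested genes. The median of that list was 0.00362. Cebpb, a factor of myeloid stress and maturation, was at 396, 399 and 421 CPM and then at 534, 525 and 544 CPM (0.40 ± 0.06, adjusted p = 0.000109). Gdf15, a secreted stress hormone, was at 1.77, 2.94 and 1.25 CPM and at 9.3, 4.32 and 8.9 CPM (1.93 ± 0.42, adjusted p = 0.0156). The Gdf15 call was lost without WT 0 h replicate 1 (0.0969), WT 0 h replicate 3 (0.113), WT 3 h replicate 1 (0.118) or WT 3 h replicate 3 (0.0876). Mcl1, a survival protein, was the only call among 25 tested genes of the BCL2 family and cell death, from 399, 387 and 377 CPM to 496, 475 and 491 CPM (0.33 ± 0.06, adjusted p = 0.00167; 0.07 with no filter on low counts). Single calls also stood in the lists of glycolysis (Pfkfb3, 1 of 26), hypoxia (Hilpda, 1 of 27) and iron (Slc40a1, 1 of 20), and 0 of 29 tested genes of cholesterol synthesis were called. Those of Pfkfb3 (without WT 0 h replicate 3 or WT 3 h replicate 3, up to 0.0731), Hilpda (without WT 0 h replicate 1 or 3 or WT 3 h replicate 1 or 2, up to 0.147) and Slc40a1 (without WT 0 h replicate 2 or 3 or WT 3 h replicate 3, up to 0.0706) depended on single libraries.

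**Figure D3:**
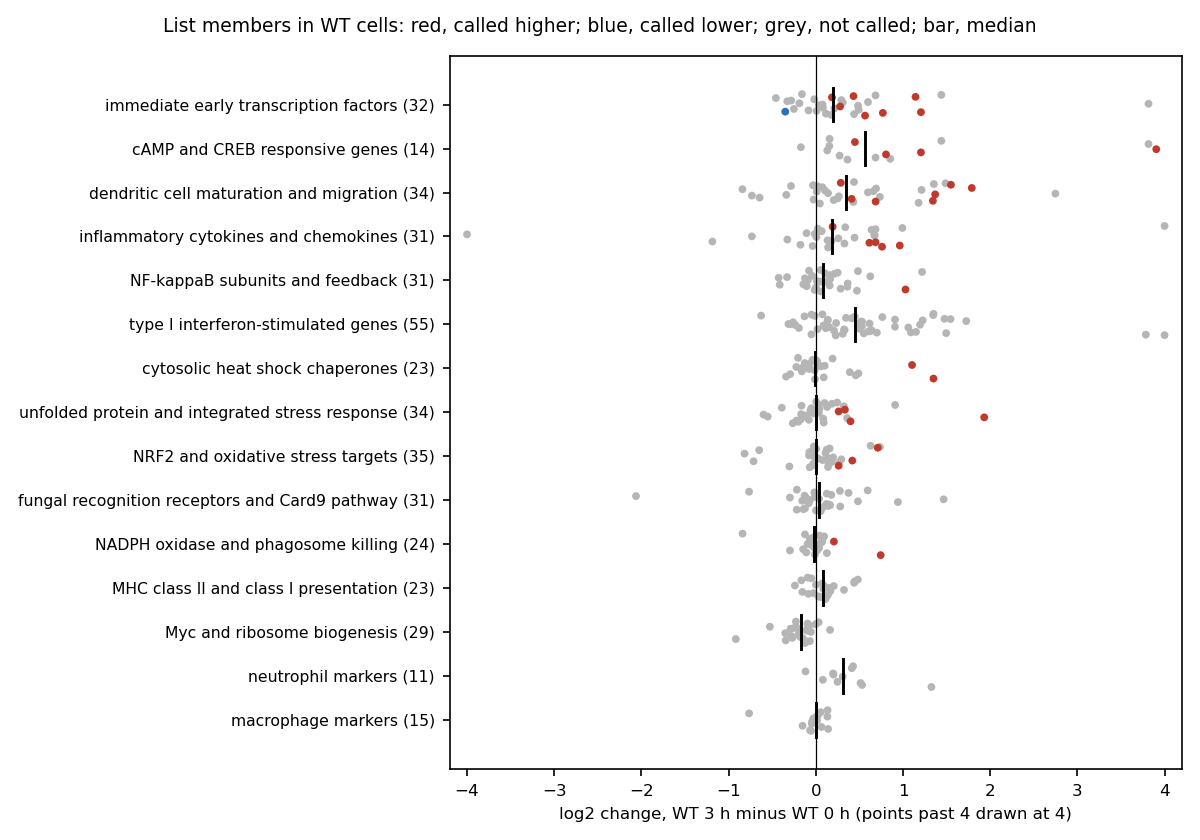
Log2 change in WT cells (3 h minus 0 h, horizontal axis) of every tested member of 15 gene lists, with the number tested in brackets, red points for members called higher, blue for lower, grey for not called and a bar for the median. Red points stand apart from a list's median in the chaperone and NRF2 lists, while interferon-stimulated genes hold no called member at a median of 0.447.

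Regulators of lysosomes and autophagy were added as a list after the values had been seen, so the count of this list too is a description. Of 48 tested members 14 rose and 1 fell, beside 0.88% and 0.137% of all tested genes. Of the 14 rises 7 held without any single library. The median of the list was 0.147. Fnip2, which partners folliculin in nutrient sensing at the lysosome (chromosome 3, 79455974 to 79567796), was at 227, 224 and 220 CPM and then at 382, 372 and 416 CPM (0.80 ± 0.07, adjusted p = 8.52e-08). Rilpl2, a binding partner of Rab GTPases, rose from 54.7, 48.7 and 46.5 CPM to 97.8, 96.2 and 83.5 CPM (0.89 ± 0.10, adjusted p = 2.56e-06). Plekhm1, an adaptor for fusion of late endosomes with lysosomes, was at 104, 102 and 105 CPM and then at 144, 144 and 151 CPM (0.50 ± 0.07, adjusted p = 5.54e-05). Each of these 3 genes had groups that were narrow and wide apart. Tecpr1, which joins autophagosomes to lysosomes, went from 74.5, 70.1 and 64.3 CPM to 108, 101 and 117 CPM (0.64 ± 0.10, adjusted p = 0.000522). Lyst, the gene of the Chediak-Higashi syndrome of giant lysosomes, changed by 0.39 ± 0.07 (adjusted p = 0.00232; 0.0557 with no filter on low counts).

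Fyco1, an adaptor that moves autophagosomes along microtubules, was the member of that list that fell. It was at 34.6, 26.4 and 35.3 CPM at 0 h and at 18.6, 14.1 and 13.8 CPM at 3 h, a change of -1.04 ± 0.21 (adjusted p = 0.00939). The call was lost without WT 0 h replicate 1 (0.0581), WT 0 h replicate 3 (0.0619), WT 3 h replicate 2 (0.0578) or WT 3 h replicate 3 (0.073), and with the 6 libraries alone (0.0508).

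Other falls were few. Il21r, the receptor of the T cell cytokine interleukin-21 (chromosome 7, 125603429 to 125633570), was at 189, 188 and 192 CPM before challenge and at 135, 137 and 134 CPM after 3 h, a change of -0.48 ± 0.10 (adjusted p = 0.00661). The 6 libraries fell into 2 narrow bands. Acpp, an acid phosphatase, was at 152, 143 and 160 CPM and at 121, 116 and 110 CPM (-0.39 ± 0.07, adjusted p = 0.00168; 0.0508 with the 6 libraries alone and 0.0557 with no filter). Picalm, an assembly protein of clathrin-coated pits, was at 373, 403 and 411 CPM and at 335, 336 and 324 CPM (-0.25 ± 0.05, adjusted p = 0.00364; 0.0739 and 0.145 under the same settings). Of the 10 largest falls chosen by size, Wdr60 (-1.36), Mzt1 (-1.18), Phax (-0.89), Tep1 (-0.46), Tmem268 (-0.44) and Pid1 (-0.32 on the log2 scale) had adjusted p-values of 0.0162 to 0.0448, and each call was lost on leaving out any of at least 4 of the 6 libraries (highest adjusted p-values of 0.147 to 0.276).

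Some lists had a median away from 0 with no called member. Of 55 tested type I interferon-stimulated genes, which cells switch on in response to interferon, 0 passed the test in WT cells, while 45 had a positive change and 16 were higher without overlap between the groups, which held for 8.26% of all tested genes. The median was 0.447 in WT cells and -0.343 in KO cells. Summed over the list the level was 1221, 1321 and 1204 CPM at 0 h and 1326, 1520 and 1620 CPM at 3 h. Each library at 3 h was above those at 0 h, the lowest of them only just (1326 against 1321 CPM). In KO cells the sums were 1495 to 1828 CPM at 0 h and 1288 to 1555 CPM at 3 h, with overlap. Isg15, a ubiquitin-like interferon product, was at 0.706, 2.52 and 2.49 CPM and at 4.85, 4.32 and 3.95 CPM, without overlap (1.23 ± 0.68, adjusted p = 0.6). Ifit1, an interferon-induced RNA binder, was at 3.18, 2.1 and 2.49 CPM and at 3.23, 4.32 and 5.44 CPM (0.70 ± 0.62, adjusted p = 0.818). In the other direction, the 29 tested genes of Myc and ribosome biogenesis had a median of -0.173, with 2 positive, 7 lower without overlap (7.01% of all tested genes) and no call. Ncl, nucleolin, the most abundant of them, changed by 0.03 ± 0.04 (adjusted p = 0.913). The 13 tested mitochondrial genome transcripts had a median of -0.117 and no call either.

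Marker lists of cell types held 1 call. None of 15 tested macrophage markers was called, with a median of -0.00298, and of 15 dendritic cell markers 1 rose, Ccr7. The 11 tested neutrophil markers had a median of 0.308 with no call, and their summed level, given above, did not overlap between the times. S100a9, a calprotectin subunit abundant in neutrophils, was at 197, 170 and 173 CPM and at 247, 236 and 290 CPM (0.51 ± 0.13, adjusted p = 0.0524; 0.027 with DESeq2 and 0.0465 with the 6 libraries alone). Mmp8, the neutrophil collagenase and the most abundant marker of that list, was at 828, 858 and 838 CPM and at 791, 769 and 766 CPM (-0.12 ± 0.06, adjusted p = 0.565). Members of the list differed in level. Ly6g, Elane and Mpo stood at 0 to 4 counts per library. S100a8 (170 to 235 counts), Ngp (172 to 257) and Ltf (91 to 142) were present in all 6 libraries. The part of these markers in the rises of Cxcl2 and the other myeloid genes was not tested.

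The largest change among the called genes, in Lars2, rested on counts that jump between libraries. Lars2 encodes the mitochondrial leucyl-tRNA synthetase (chromosome 9, 123366927 to 123462666), and had 51, 30 and 38 counts at 0 h and 3345, 3547 and 3582 at 3 h. Counts above 1000 were found in 5 of the 30 libraries, the 3 WT libraries at 3 h, 1 of 3 WT libraries at 9 h (2102) and 1 of 3 KO libraries at 9 h (2415). In the other 25 libraries the gene had 20 to 86 counts. The log2 change was 6.75 ± 1.48 (adjusted p = 0.0223), and the call was lost without WT 0 h replicate 1 (0.12), WT 0 h replicate 2 (0.123), WT 0 h replicate 3 (0.128) or WT 3 h replicate 3 (0.0535), with WT libraries alone (0.0735) and with no filter on low counts (0.113). In the authors' deposited table Lars2 had a log2 change of 6.748 and an adjusted p of 8.74e-280.

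Wdr38, Lpgat1 and Gstp2, with the opposite pattern, were picked out after their values were seen. Wdr38 had 56, 53 and 64 counts at 0 h and 0 in each library at 3 h, and was at 0 or 1 count in 9 of the 30 libraries, up to 94 in the rest. It was not called here (adjusted p = 0.334), while the authors' deposited table lists it at -8.033 with an adjusted p of 1.63e-07. Lpgat1 had 225, 173 and 193 counts and then 85, 68 and 70, and had counts of 64 to 103 in 5 libraries of other groups, at WT 6 h (90) and at KO 0 h (84), 3 h (100) and 6 h (64 and 103). It was not called either (adjusted p = 0.19), and the authors' deposited table has it at -1.144 with an adjusted p of 4.49e-06. Gstp2, a glutathione transferase with close paralogs between which reads may be split, had 7, 10 and 7 counts at 0 h and 0 in each of the 3 libraries at 3 h. It had 5 to 16 counts in the other 27 libraries, was at least 6.66-fold lower when the WT 3 h group is set to a floor of 3 counts in all, and was called (adjusted p = 0.000233). Gm2099 and Fyn rose instead. In every KO library Gm2099, a predicted gene, had 26 to 42 counts. In WT cells it had 1, 1 and 1 counts and then 15, 18 and 2 (adjusted p = 0.031). That call was lost without WT 0 h replicate 1, 2 or 3 or WT 3 h replicate 1 or 2 (up to 0.181). Fyn, a kinase of the Src family, had 5, 8 and 3 counts and then 15, 25 and 15 (adjusted p = 0.0347), a call lost without WT 0 h replicate 1 or 3 or WT 3 h replicate 2 or 3 (up to 0.226). A jump of more than 8-fold between libraries of 1 group was found in 474 of the tested genes (3.82%), 2 of them among the 109 rises.

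**Figure D4:**
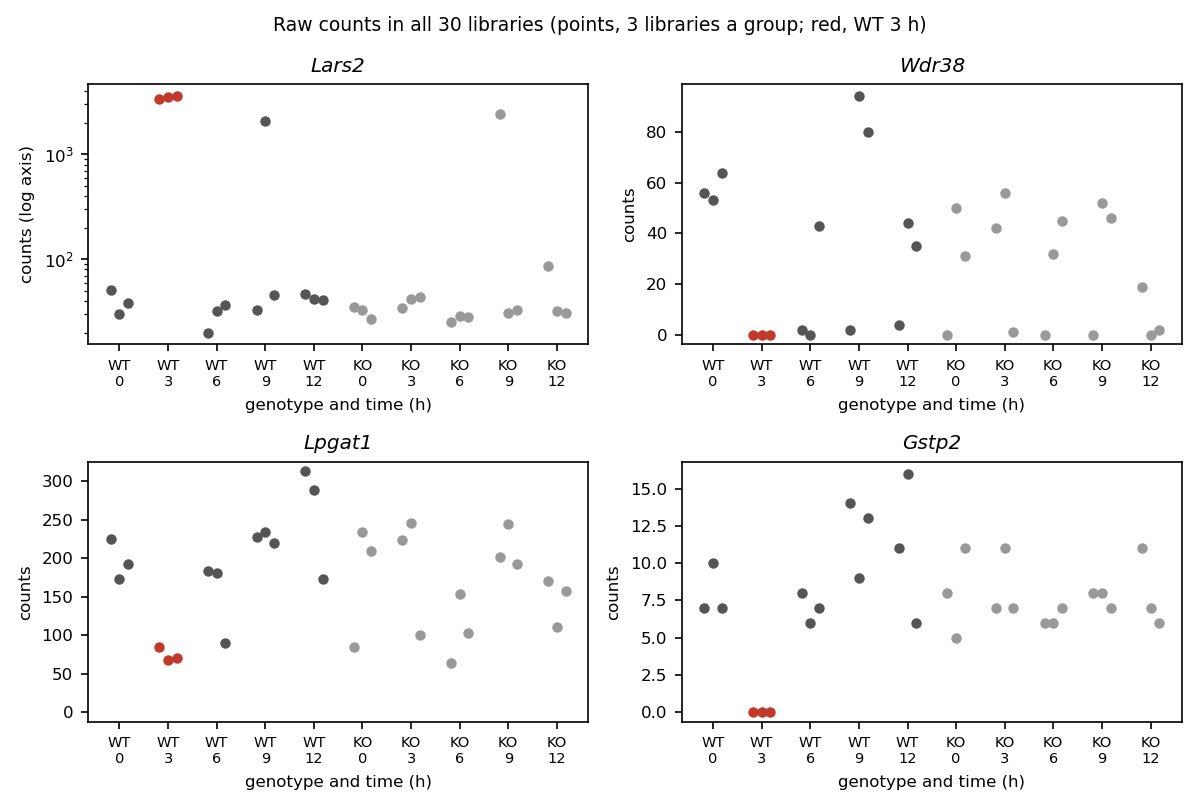
Raw counts of Lars2 (log axis), Wdr38, Lpgat1 and Gstp2 (linear axes from 0) in all 30 libraries by genotype and time, with the 3 WT libraries at 3 h in red. Lars2, Wdr38 and Lpgat1 show single libraries of other groups at the WT 3 h level, and Gstp2 is at 0 in the WT 3 h libraries and at 5 to 16 in the others.

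KO cells, which share no library with WT cells, gave a separate measurement of the same step in cells labelled Nlrx1 deficient. There 151 genes passed (1.22%), 128 higher (1.03%) and 23 lower (0.186%). Of the 109 genes that rose in WT cells 75 also rose in KO cells, 68.8% of the WT list and 58.6% of the KO list, and 105 had the same sign with a median KO change of 0.516. Of the 17 falls 6 were called lower in KO cells, 35.3% of the WT list and 26.1% of the KO list, and 12 had the same sign with a median of -0.165. Of the genes with the smallest p in WT cells, KO changes were 1.13 for Sgk1, 0.74 for Hmox1, 1.01 for Fnip2, 0.85 for Slamf7, 0.54 for Plk2, 1.45 for Tent5c and 0.68 for Jun, all called. Slamf7, a self-ligand receptor of the SLAM family, was at 44.5, 45.7 and 46.9 CPM and then at 87.3, 78.4 and 83 CPM in WT cells (0.86 ± 0.08, adjusted p = 6.56e-08). Of the 34 tested maturation genes 5 rose in KO cells, among them Ccr7 (1.34), Fscn1 (1.12) and Cd83 (0.89). Cd274 (0.16) and Marcksl1 (0.15) were called in WT cells and not in KO cells, and their WT calls depended on single libraries.

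The difference between the genotypes in the change from 0 to 3 h was tested directly, and 0 of 12393 genes passed with edgeR (674 at an unadjusted p under 0.05, smallest adjusted p 0.0907). DESeq2 called 2 genes, and fits without single libraries called 0 to 2. Among genes that were called in WT cells and not in KO cells was Fyco1, whose WT call depended on single libraries. It had a WT change of -1.04 and a KO change of 0.18, a difference of -1.22 ± 0.29 (adjusted p = 0.239). Egr1 was the reverse case, at 0.04 in WT cells and 0.51 in KO cells (adjusted p = 0.0139 in KO). Ccl22 differed by 0.31 ± 0.13 (adjusted p = 0.908), from higher KO levels at both times (means of 186 and 241 CPM in KO cells, 94.4 and 152 CPM in WT cells). None of these differences passed the test, which does not show that the genotypes respond alike. At 0 h small structural RNA genes held 3.34% to 3.5% of counts in KO libraries, against 5.48% to 6.04% in WT libraries. The part of that share in the levels of the 2 genotypes was not tested.

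**Figure D5:**
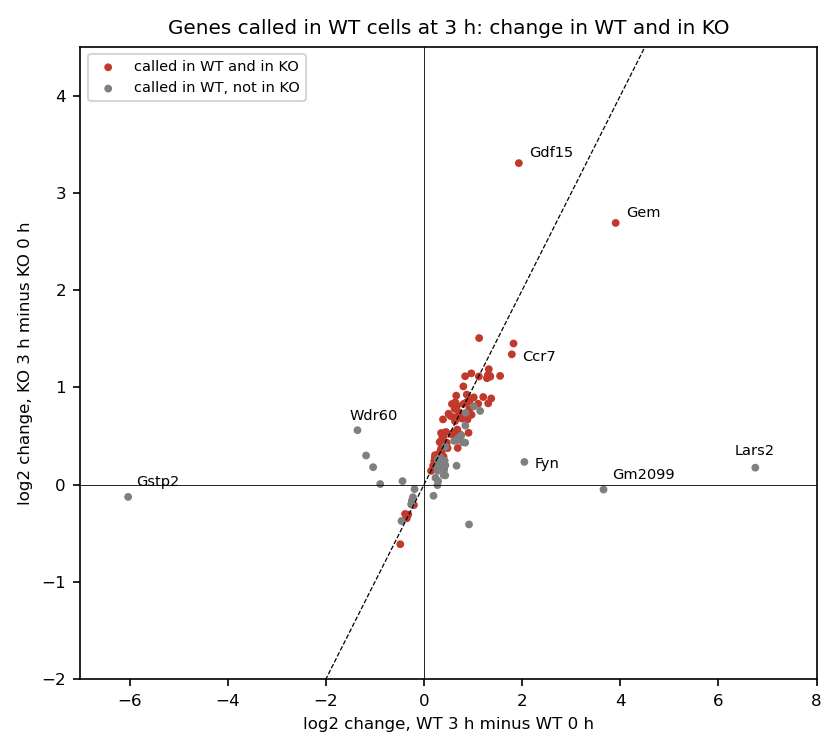
Log2 change from 0 to 3 h in KO cells (vertical axis) against that in WT cells (horizontal axis) for the 126 genes called in WT cells, red where also called in KO cells and grey where not, with a dashed line of equal change. Most points lie near the line, and Lars2, Gm2099, Fyn and Gstp2 lie near 0 on the KO axis.

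Later times show where the 3 h values stood in the course of the WT response, and they share the 0 h libraries with the 3 h comparison. The differences between 3 h and later times were not tested. WT libraries at 12 h held 3.82% to 4.01% of counts in small structural RNA genes, against 6.46% to 6.8% at 3 h. Their share in mitochondrial rRNA genes was 9.12% to 9.87%, against 6.8% to 7.07% at 3 h. The part of these shares in the levels below was not tested. Ccr7 had a mean of 35.2 ± 12.9 CPM at 3 h (SD, n = 3), then 39.5, 32.5 and 47.7 CPM at 6, 9 and 12 h. Fnip2 was at 390 CPM at 3 h and at 455, 361 and 345 CPM later. Other genes that had risen at 3 h had means several times higher at 12 h. Cxcl2 went from 134 CPM at 3 h to 143, 194 and 597 CPM, Inhba from 444 to 474, 551 and 2235 CPM, and Hspa1a from 22.8 to 37.6, 38 and 123 CPM. Gem reached 80.6 CPM at 12 h from 6.49 CPM at 3 h. Hmox1 peaked in between, with 748 CPM at 3 h and 958, 1169 and 641 CPM after that. Tnf, not called at 3 h, was at 83.7, 143 and 623 CPM at 6, 9 and 12 h, and Il1b was at 19.8, 37.3 and 184 CPM. Fosl2, lower at 3 h in a call that depended on single libraries, was at 122, 132 and 217 CPM.

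The authors' deposited table for this comparison lists 33 genes under an adjusted p of 0.05, 31 higher and 2 lower. Of those, 28 were called here. The 5 that were not were Csf1, Cdc42se1, S100a9, Lpgat1 and Wdr38. The authors' log2 change was 1.805 for Ccr7, 1.296 for Sgk1, 0.7035 for Hmox1 and 0.7952 for Fnip2 in that deposited table, against 1.79, 1.30, 0.71 and 0.80 in the fit used here.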

How the data were processed

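Gene counts deposited by the authors for 30 libraries were used as raw counts, since the values are whole numbers with different totals per library. The submitters' processing notes name Trimmomatic 0.35, HISAT2, StringTie, DESeq2 and GRCm38. Annotation release, strand setting and counting step: not given in the sources used here. The counts could therefore be rounded estimates, and how reads of near copies, overlapping genes or antisense genes were split is unknown. The log2 fold changes and the adjusted p-values deposited by the authors, per the file headers, were used only where named.

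Of 54532 genes 54495 were found in GENCODE M21 (37 were not). The filterByExpr function of edgeR (minimum count 10) kept 12393 genes with 98.66% of counts. Libraries were scaled by TMM, and a quasi-likelihood model (edgeR 4.0.16, R 4.3.3, robust) with a term for each of the 10 groups took in all 30 libraries (20 residual degrees of freedom, biological coefficient of variation 13.7%). Two-sided p-values were adjusted over all tested genes (Benjamini-Hochberg), with a threshold of 0.05. The script was tested on simulated counts. No pair of libraries within the WT and KO groups at 0 and 3 h agreed within sampling noise. Without molecular identifiers reads are not independent molecules, so intervals and floors cover counting error only.

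Genes were named as the 15 largest rises, the 10 largest falls, the 12 rises and 5 falls of smallest p (at least 5 CPM, no overlap), up to 6 called and 3 other members per list, and a set of genes always named. The members, the lists and this rule were chosen with earlier results of these data known. Alternatives were other scaling (RLE), no filter, protein-coding genes, a replicate block, fewer libraries, DESeq2 1.42.0 and single libraries left out. Leaving out genes with jumps between replicates was added after seeing the data.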

Additional observations from a re-analysis of the deposited data

How the results depend on the processing

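In WT cells the count of 126 calls stayed within a factor of 1.5 with RLE scaling (129), protein-coding genes only (127), WT libraries only (109), DESeq2 (107) and without genes with replicate jumps (125). It was 58 with no filter on low counts, where 46958 genes were tested, and 58 with the 6 compared libraries alone, of which 48 were among the 126. Leaving out single libraries gave 80 to 104 calls. In KO cells 151 calls became 60 with no filter, 46 with the compared libraries alone, 83 with KO libraries only and 153 without genes with replicate jumps, and 98 to 111 without single libraries (98 without KO 3 h replicate 2). The difference between genotypes, with 0 calls, gave 2 with DESeq2 (Gm20716 and Gm20560), 1 with the compared groups alone (Lars2) and 0 to 2 without single libraries. The cause of these changes was not tested.

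Whether the replicate numbers pair the libraries is not settled by the data. Deviations of libraries with the same number correlated at 0.0313, 0.0312 and 0.0227 in WT cells and at 0.00775, 0.0673 and -0.0578 in KO cells. In WT cells each library correlated best with its own number, a hint from the data only. With a replicate block the calls were 128 in WT cells, 147 in KO cells and 0 for the difference.

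Of the genes named, those whose direction turned were not called. Without single libraries the log2 change ran from -0.0169 to 0.139 for Egr1, from -0.0347 to 0.0725 for Tnf, from -0.0256 to 0.147 for Il1b, from -0.00322 to 0.147 for H2-Aa and from -0.0539 to 0.0106 for Itgax. With RLE scaling all 88 named genes that were tested kept direction and side of the threshold. At this depth small changes of genes with few counts could not be detected, and Il6 had too few counts to compare. Genes with few counts and large changes, such as Gem, were called.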

Other observations

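Some called genes outside the rule for named genes were picked after their values were seen. Lipid handling was represented by Fabp4, a fatty acid binding protein of macrophages and fat cells, at 14.5, 10.9 and 11.6 CPM before challenge and 23, 27 and 31.6 CPM at 3 h (log2 change 1.12 ± 0.18, edgeR adjusted p = 0.00037). Its relative Fabp5 was at 490, 485 and 462 CPM and then at 601, 597 and 605 CPM (0.33 ± 0.05, adjusted p = 0.000135). Hcar2, the receptor for nicotinic acid and beta-hydroxybutyrate, went from 47.7, 63.8 and 46.5 CPM to 95.4, 87 and 99.4 CPM (0.84 ± 0.12, adjusted p = 7.58e-05). In all 3 genes the groups did not overlap.

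Rasgef1b, an exchange factor for Ras-like GTPases, was at 34.6, 25.2 and 37.3 CPM and then at 63.5, 54.6 and 72.2 CPM (0.97 ± 0.13, adjusted p = 7.56e-05). Rgl1, an effector of Ras that activates Ral, was at 100, 98.6 and 107 CPM and then at 159, 145 and 201 CPM (0.72 ± 0.11, adjusted p = 0.000215). Ralgds, of the same kind, was at 86.2, 90.2 and 76.8 CPM and then at 126, 117 and 148 CPM (0.63 ± 0.12, adjusted p = 0.00336). Il1f9, an interleukin-1 family cytokine also named interleukin-36 gamma, rose from 27.5, 32.3 and 25.3 CPM to 45.3, 57.8 and 44 CPM (0.78 ± 0.13, adjusted p = 0.000954; 0.0593 with the 6 libraries alone), and was thus a member of that family that passed the test where Il1a and Il1b did not. The KO changes were 1.51 for Fabp4, 0.72 for Rasgef1b, 0.52 for Rgl1, 0.65 for Ralgds and 0.71 for Il1f9, all called, while Hcar2 had a KO change of 0.43 that was not (adjusted p = 0.0911).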
